A study of Homo sapiens with 12 samples.

Results

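The 10 genes described here are the cofactor gene VGLL3, the coactivator genes YAP1 and WWTR1, the 4 TEAD transcription factor genes TEAD1, TEAD2, TEAD3 and TEAD4, and 3 genes known as their targets, AMOTL2, CYR61 and CTGF. They were taken by symbol from the 56609 gene symbols of the deposited tables, and all 10 were found there and passed the filter on low values. The set was chosen by the level of VGLL3, which was lower in both drug-resistant lines than in their parents, and extended to the coactivators, factors and targets around it. The differences between a resistant line and its parent are therefore given for all 10 genes as descriptions, without a test.

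YAP, the product of YAP1, and TAZ, the product of WWTR1, are coactivators that cannot bind DNA by themselves. They enter the nucleus, bind TEAD proteins at DNA sites with the core GGAATG, and switch on genes such as CTGF and CYR61. In the Hippo cascade the kinases encoded by STK3 and STK4 activate those encoded by LATS1 and LATS2. The LATS kinases phosphorylate YAP and TAZ, which are then held in the cytoplasm or degraded. Vestigial-like proteins bind the same TEAD surface as YAP and TAZ. VGLL3 is known as a cofactor that can activate transcription with TEADs, and VGLL4 as one that competes with YAP. In mesenchymal tumours this pathway is known for control of adhesion, migration and matrix genes. RNA levels do not show where YAP and TAZ are in the cell or whether they are phosphorylated.

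The RNA came from human Ewing sarcoma cell lines. Ewing sarcoma is a bone and soft tissue cancer in which the EWSR1-FLI1 fusion gene acts as the driver. A4573 and TC-71 are established lines, and A4573-R and TC-71-R are their derivatives resistant to YK-4-279, a small molecule described as an inhibitor of the EWS-FLI1 fusion protein. Parental cells were given DMSO, the solvent, and resistant cells YK-4-279, with 650 uM as the labelled dose for A4573-R and 400 uM that for TC-71-R. The unit of these doses is in doubt and is printed as labelled. All cells grew in RPMI medium with 10% serum. Each of the 4 groups has 3 libraries, and the labels do not say whether these are separate cultures, so p-values measure only the spread between these libraries. Nor do they say whether a resistant line is 1 clone or a pool. The effects of resistance and of the drug in the medium cannot be told apart.

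Between 43.98 and 62.13 M reads per library fell on named genes (M, 1000000). Levels are in CPM, counts per 1000000 reads, on the authors' scaled library sizes, and 3 reads correspond to 0.0309 to 0.0444 CPM depending on the library. Of 7 markers fixed for Ewing sarcoma, 6 had at least 1 CPM in all 12 libraries. The other, CD99, reached at most 0.0145 CPM; it is annotated once on chromosome X and once on chromosome Y, and the part of that in its value was not tested. Summed markers reached at most 1.11 CPM for leukocytes, 0.775 for endothelium and 1.62 for epithelium. These are bulk RNA values, so fewer cells of a type and less RNA per cell cannot be told apart.

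Most genes differed between the groups. Of the 14335 genes tested with limma, 72.5% passed an adjusted p of 0.05 between A4573-R and A4573 parental and 78.5% between TC-71-R and TC-71 parental. The libraries of the resistant and the parental group did not overlap for 74.6% of tested genes in A4573 and for 81.1% in TC-71. Among the 10 genes this held for 8 in A4573, with 2 higher and 6 lower in A4573-R beside 39.7% and 35.0% of all genes. It held for 9 in TC-71, with 4 higher and 5 lower in TC-71-R beside 40.2% and 40.9% of all genes. The genes were chosen with these comparisons known, so nothing is read from these counts.

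**Figure D1:**
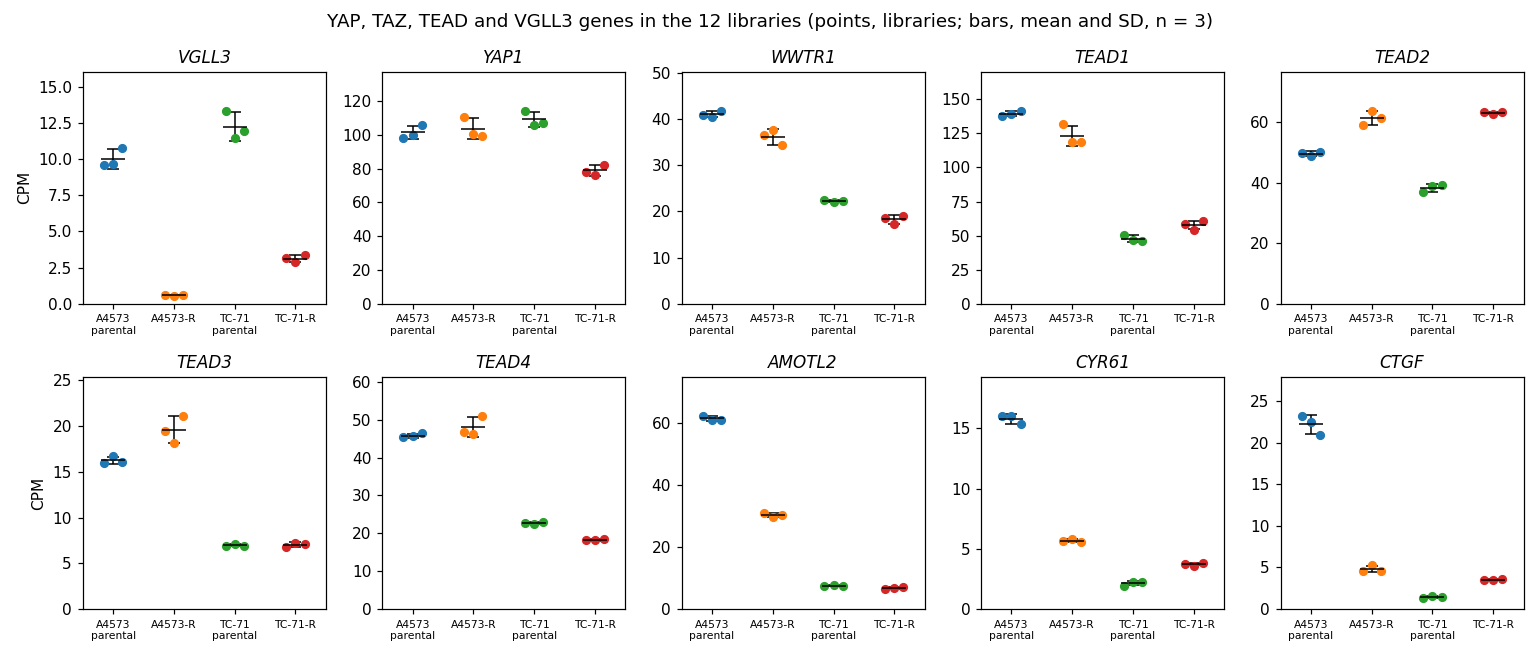
Level in CPM of the 10 genes (1 panel each, linear axis from 0) in the 4 groups, with a point per library and bars for mean and SD, n = 3. VGLL3 is lower in both resistant lines, whereas CYR61 and CTGF are lower in A4573-R and higher in TC-71-R than in the respective parent.

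VGLL3 was nearly lost in A4573-R and reduced in TC-71-R. The gene lies at 86876388 to 86991119 on chromosome 3, minus strand (positions here are from GENCODE 29 on GRCh38). In A4573 parental its 3 libraries held 9.62, 9.64 and 10.79 CPM, and in A4573-R 0.579, 0.550 and 0.607 CPM, which are 40 to 47 reads per library. In TC-71 parental they held 13.4, 11.45 and 11.9 CPM, and in TC-71-R 3.14, 2.89 and 3.34 CPM. No 2 groups overlapped, and the order from high to low was TC-71 parental, A4573 parental, then TC-71-R, and last A4573-R. By the ratio of group means VGLL3 was 17.3-fold lower in A4573-R (10.02 ± 0.674 to 0.579 ± 0.0288 CPM, SD, n = 3) and 3.92-fold lower in TC-71-R (12.25 ± 0.993 to 3.12 ± 0.228 CPM). On the log2(CPM + 1) scale, which understates changes at low levels, the differences were −2.80 and −1.68 (SE 0.06 each). A fit to the recovered reads with edgeR gave −4.13 and −1.93. How far the drop differs between the lines was not tested, because VGLL3 was chosen for it.

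Of the other vestigial-like genes, VGLL4 fell in both resistant lines and VGLL2 fell in TC-71-R. VGLL4 held 21.9 ± 0.354 CPM in the A4573 parent against 17.0 ± 0.233 in A4573-R, and 39.0 ± 0.913 in the TC-71 parent against 26.4 ± 1.148 in TC-71-R. The drop was 0.34 and 0.54 on the log2 scale in A4573-R and TC-71-R (limma, adjusted p = 1.0e-06 and 3.0e-09). VGLL2, a family member known from skeletal muscle, was expressed in TC-71 and practically absent from A4573. Its libraries held 11.3, 11.6 and 11.65 CPM in TC-71 parental and 2.07, 2.03 and 2.17 CPM in TC-71-R, a drop of 2.02 on the log2 scale (limma, adjusted p = 5.4e-15), or 5.52-fold. In A4573 parental no read fell on VGLL2 in any library, and in A4573-R 1 library held 2 reads and the other two none. Against the floor of 3 reads per library, VGLL2 was at least 289-fold higher in TC-71 parental than in A4573 parental. VGLL1 had at most 1 read in any library. In TC-71-R, VGLL2 and VGLL3 were thus both lower than in the parent, and in A4573-R VGLL3 was lower with VGLL2 not detectable in its parent at this depth.

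Per kb of exon, which allows a rough comparison of different genes, VGLL4 was the most abundant vestigial-like gene in all 4 groups, as it was in CPM. The length used is that of all annotated exons of a gene together, 12.71 kb for VGLL3. Transcripts expressed here may be shorter, which was not checked, so all shares per kb depend on these lengths. VGLL3 made up 20.7% ± 0.827 (SD, n = 3) of the summed VGLL2, VGLL3 and VGLL4 level per kb in A4573 parental and 1.89% ± 0.0827 in A4573-R. In TC-71 parental its share was 8.36% ± 0.589 and in TC-71-R 5.08% ± 0.235. VGLL2 had 44.9% ± 1.19 of the sum in TC-71 parental, close to the 46.7% ± 0.621 of VGLL4, and 19.4% ± 0.597 in TC-71-R. The summed level of the 3 genes was 3.81 CPM per kb in the A4573 parent and 2.404 in A4573-R, and 11.5 in the TC-71 parent and 4.83 in TC-71-R. These sums include VGLL3, which was chosen for being lower, so their drop is a description. VGLL4 made up 97.9% of the sum in A4573-R and 75.5% in TC-71-R.

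**Figure D2:**
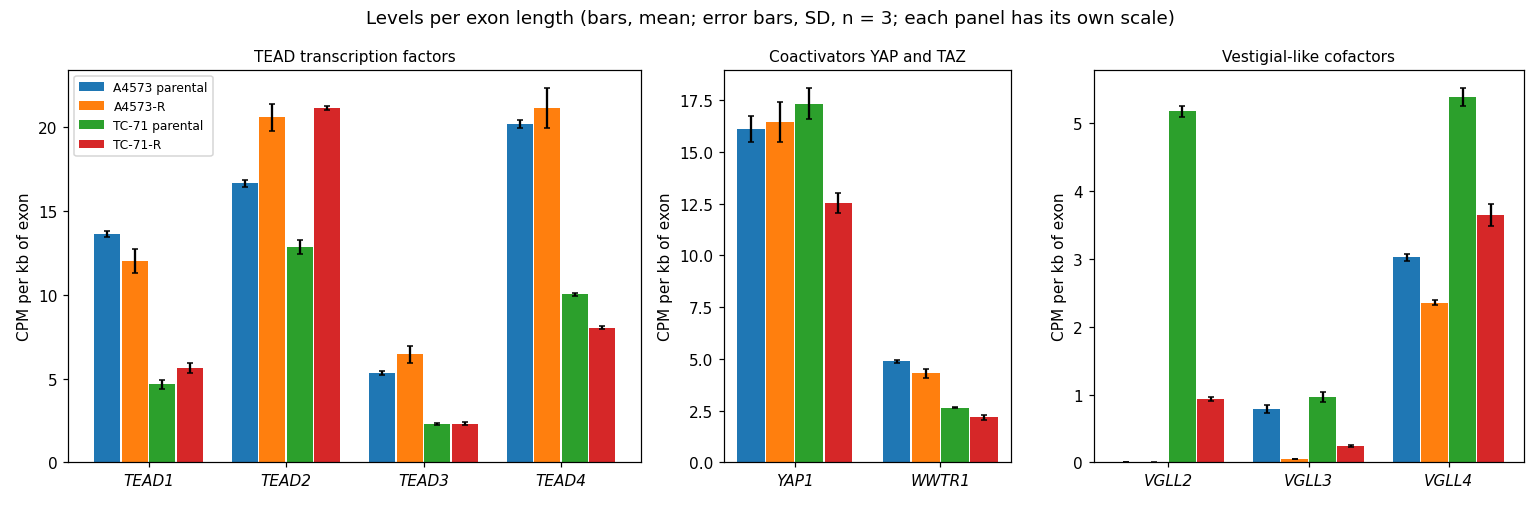
Level in CPM per kb of exon for the TEAD genes, the coactivator genes and the vestigial-like genes (bars, mean; error bars, SD, n = 3; linear axes from 0, a different scale in each panel). TEAD2 is the tallest TEAD bar in TC-71-R, YAP1 exceeds WWTR1 in all 4 groups, and VGLL2 is visible only in the TC-71 groups.

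The coactivator gene YAP1 (chromosome 11, 102110461 to 102233423, plus strand) was nearly level across 3 of the 4 groups. Its libraries held 98.3, 100.2 and 106 CPM in A4573 parental, 110.7, 100.7 and 99.6 in A4573-R, and 114.4, 105.7 and 107.2 in TC-71 parental. In TC-71-R they held 78.1, 76.4 and 82.4 CPM, below all other libraries. The log2 difference was 0.03 in A4573-R, with overlapping libraries, and −0.46 in TC-71-R (SE 0.05 each), where the mean was 1.38-fold lower.

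WWTR1, the gene of TAZ (chromosome 3, 149517235 to 149736714, minus strand), was slightly lower in each resistant line. It held 40.8, 40.55 and 41.9 CPM in A4573 parental against 36.55, 37.6 and 34.3 in A4573-R. In TC-71 parental it held 22.4, 22.1 and 22.2 CPM against 18.7, 17.2 and 19.1 in TC-71-R. Neither pair of groups overlapped, and the log2 differences were −0.18 and −0.27 (SE 0.04 each). Per kb of exon YAP1 made up 76.7% ± 0.440 of the YAP1 and WWTR1 sum in the A4573 parent and 79.3% ± 1.03 in A4573-R. In the TC-71 parent it made up 86.8% ± 0.394, and in TC-71-R 85.2% ± 0.392. The sum itself was 21.0, 20.8, 20.0 and 14.7 CPM per kb in that order, so TC-71-R stood below the other groups in coactivator RNA.

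The TEAD genes encode the DNA-binding partners of YAP and TAZ. TEAD2 (chromosome 19, 49340595 to 49362457, minus strand) was higher in both resistant lines, with no overlap between a resistant line and its parent. Its libraries held 49.6, 48.8 and 50.2 CPM in A4573 parental and 59.0, 63.8 and 61.3 in A4573-R. In TC-71 parental they held 36.7, 38.8 and 39.2 CPM, and in TC-71-R 63.2, 62.6 and 63.3. The resistant lines overlapped with each other, although TC-71 parental had the lowest level of the 4 groups. The log2 differences were 0.30 and 0.71 (SE 0.04 each). On the opposite strand TEAD2 overlaps CD37 and DKKL1, which reached at most 6.18 and 1.96 CPM. The sources used here do not say whether counting used the strand.

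TEAD1 (chromosome 11, 12674591 to 12944483, plus strand) moved in opposite directions. It held 138.1, 139.0 and 141.8 CPM in A4573 parental and 132.0, 119.0 and 118.9 in A4573-R, a log2 difference of −0.18 (SE 0.05). In TC-71 it was less abundant, with 50.7, 46.85 and 45.8 CPM in the parent and 58.5, 54.3 and 60.6 in TC-71-R, a difference of 0.27 (SE 0.05). Resistant and parental libraries did not overlap in either line.

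TEAD3 (chromosome 6, 35473597 to 35497076, minus strand) was higher in A4573-R than in its parent, and TEAD4 (chromosome 12, 2959330 to 3040673, plus strand) was lower in TC-71-R than in its parent. TEAD3 had means of 16.25 ± 0.399 CPM in A4573 parental and 19.6 ± 1.49 in A4573-R, without overlap, a log2 difference of 0.25 (SE 0.05). In TC-71 it had 6.98 ± 0.105 CPM in the parent and 7.03 ± 0.249 in TC-71-R, which overlapped. Its small difference there, 0.01, became −0.06 when CPM was recomputed on named genes alone. TEAD4 had 45.8 ± 0.519 CPM in A4573 parental and 48.0 ± 2.65 in A4573-R, which overlapped. It had 22.75 ± 0.251 CPM in the TC-71 parent and 18.3 ± 0.170 in TC-71-R, without overlap, a log2 difference of −0.30 (SE 0.04).

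Per kb of exon the TEAD RNA pool of TC-71-R was the most one-sided. TEAD2 made up 57.0% ± 0.445 (SD, n = 3) of the summed TEAD level there, against 43.1% ± 1.17 in TC-71 parental, 34.2% ± 1.64 in A4573-R and 29.9% ± 0.284 in A4573 parental. TEAD4 was second in TC-71-R with 21.65% ± 0.0857, against 33.6% ± 0.334 in TC-71 parental. In A4573 parental TEAD4 led with 36.2% ± 0.0525, and in A4573-R TEAD4 (35.1% ± 1.21) and TEAD2 were within their spread of each other. TEAD3 had the smallest share in every group, from 6.22% in TC-71-R to 10.7% in A4573-R. The summed TEAD level was 55.7 ± 0.554 CPM per kb in the A4573 parent and 60.1 ± 1.23 in A4573-R, and 29.8 ± 0.237 in the TC-71 parent and 37.1 ± 0.472 in TC-71-R. The summed TEAD level per kb was thus higher in each resistant line than in its parent, with no overlap of libraries. In A4573 this depends on the division by exon length. TEAD1, with the longest exons (10.28 kb) and the highest CPM of the TEAD genes there, fell from 139.6 to 123.3 CPM in A4573-R.

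The target genes CTGF and CYR61 encode secreted CCN matrix proteins (now named CCN2 and CCN1), and AMOTL2 encodes a scaffold protein that binds YAP and can hold it in the cytoplasm. CTGF is shown with its promoter because this is the standard TEAD-controlled promoter. RefSeq promoter windows (build GRCh38.p14) were matched for 7 of the 10 genes, 10 windows in all, and the 250 bases before each gene start were searched on both strands for the TEAD core GGAATG, which reads CATTCC on the other strand, and for the AP-1 site TGANTCA. The TEAD core was found in 3 of the 10 windows, 1 each of CTGF, AMOTL2 and YAP1, and TGANTCA in none of the 10. Another AMOTL2 window, at chr3:134375418-134375667, held no TEAD core. Over all 35116 such windows, 11.9% held the TEAD core, 6.57% held TGANTCA, and 0.0826% (29 windows) held 3 or more TEAD cores, as the CTGF window does. The CTGF stretch is at chr6:131951374-131951622, minus strand, and its matches begin 169, 104 and 95 bases before the gene start. The AMOTL2 stretch is at chr3:134374499-134374528, minus strand, with the match 69 bases before a gene start. The YAP1 stretch is at chr11:102110273-102110302, plus strand, with the match 162 bases before a gene start. For AMOTL2 and YAP1 only 30 bases are shown because their windows overlap annotated exons. All are written 5′ to 3′ with matches in capitals. A match is a description of these letters and not evidence of binding.
CTGF: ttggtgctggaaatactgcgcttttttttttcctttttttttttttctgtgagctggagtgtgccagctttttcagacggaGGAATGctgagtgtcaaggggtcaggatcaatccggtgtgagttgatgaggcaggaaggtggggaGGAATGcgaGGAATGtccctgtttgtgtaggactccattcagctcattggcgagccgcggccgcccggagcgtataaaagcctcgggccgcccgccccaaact
AMOTL2: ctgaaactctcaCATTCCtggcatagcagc
YAP1: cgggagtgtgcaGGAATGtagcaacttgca

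CTGF, with the 3 TEAD cores shown above, was highest in A4573 parental. The gene lies at 131948176 to 131951373 on chromosome 6, minus strand. Its libraries held 23.25, 22.5 and 20.97 CPM in A4573 parental and 4.63, 5.25 and 4.55 in A4573-R, a 4.62-fold lower mean. In TC-71 it went the other way, from 1.36, 1.61 and 1.40 CPM in the parent to 3.495, 3.48 and 3.57 CPM in TC-71-R, a 2.41-fold higher mean. No 2 groups overlapped. The log2 differences were −2.0 and 0.88 (SE 0.06 each), and −2.23 and 1.31 in the edgeR fit to the recovered reads.

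CYR61 (chromosome 1, 85580761 to 85583962, plus strand) had the same order of groups. It held 16.04, 15.98 and 15.3 CPM in A4573 parental and 5.66, 5.79 and 5.54 in A4573-R, 2.79-fold lower by the ratio of means. It held 1.94, 2.28 and 2.28 CPM in the TC-71 parent and 3.78, 3.61 and 3.84 in TC-71-R, 1.72-fold higher. The log2 differences were −1.33 and 0.58 (SE 0.05 each), and no 2 groups overlapped. The resistant lines were closer to each other in CTGF and CYR61 than the parental lines were, since the high parent had less and the low parent more.

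AMOTL2 (chromosome 3, 134355874 to 134375479, minus strand) was lower in both resistant lines, and much more so in A4573-R. Its libraries held 62.3, 61.1 and 60.98 CPM in A4573 parental and 30.9, 29.8 and 30.3 in A4573-R, 2.02-fold lower. They held 7.55, 7.62 and 7.58 CPM in the TC-71 parent and 6.35, 6.74 and 6.99 in TC-71-R, 1.13-fold lower. No 2 groups overlapped, and the log2 differences were −0.99 and −0.16 (SE 0.04 each). AMOTL2 therefore did not share the increase of CTGF and CYR61 in TC-71-R.

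Markers fixed for fibroblasts moved with CTGF and CYR61 when summed, but DCN alone went the other way in A4573-R. Both list genes, DCN and LUM, which encode the matrix proteoglycans decorin and lumican, had at least 1 CPM in all 12 libraries. Their summed level was 73.3 to 78.9 CPM in the A4573 parent and 48.8 to 52.2 in A4573-R, and 7.67 to 8.19 in the TC-71 parent and 39.9 to 48.7 in TC-71-R. Singly, LUM was lower in A4573-R than in its parent (58.3 to 29.2 CPM) and DCN higher (17.6 to 21.45 CPM). Their part in the CTGF and CYR61 values was not tested.

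**Figure D3:**
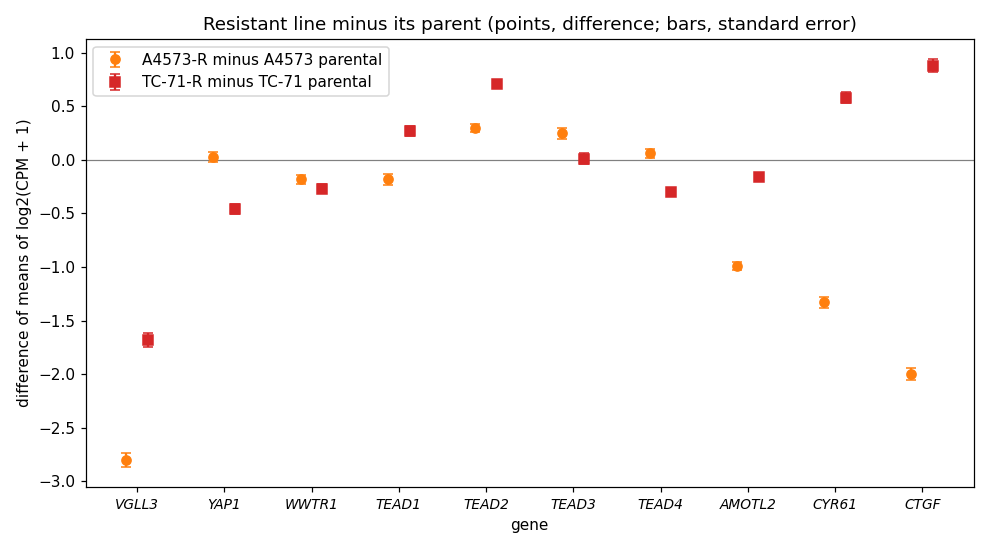
Difference between each resistant line and its parent on the log2(CPM + 1) scale for the 10 genes (points, difference; bars, standard error of the fit to 12 libraries). VGLL3, WWTR1 and AMOTL2 lie below 0 in both lines, TEAD2 above 0 in both, and TEAD1, CYR61 and CTGF on opposite sides.

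The differences of the lines were tested for the 9 genes other than VGLL3, as the difference in TC-71-R minus the difference in A4573-R in the limma fit. Both of these differences were known when the genes were chosen, so the p-values here are descriptive. Over all tested genes 78.1% passed this test, and of the 9 genes 8 did, 5 with a more positive difference in TC-71-R (37.9% of all genes) and 3 with a more negative one (40.2% of all genes). CTGF had the largest, 2.88 (SE 0.08, limma, adjusted p = 2.1e-13), followed by CYR61 with 1.91 (SE 0.07, limma, adjusted p = 4.4e-12) and AMOTL2 with 0.84 (SE 0.06, limma, adjusted p = 1.9e-09). TEAD1 with 0.45 and TEAD2 with 0.40 were also more positive in TC-71-R (limma, adjusted p = 3.1e-05 and 2.9e-06). YAP1 with −0.49, TEAD4 with −0.37 and TEAD3 with −0.24 were more negative there (limma, adjusted p = 6.6e-06, 1.7e-05 and 0.0066). For WWTR1 the difference was −0.09 (SE 0.06, limma, adjusted p = 0.2), and −0.16 with an adjusted p of 0.047 when CPM was recomputed on named genes alone. A share of 8 in 9 beside 78.1% of all genes does not set the group apart.

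The parental lines, compared with DMSO in both, differed more in the target genes than in the coactivators. This comparison uses the same parental libraries as those above. Of all tested genes 89.9% passed, 45.9% higher and 44.1% lower in TC-71 parental, and of the 10 genes all passed, 2 higher and 8 lower. The libraries of the parental lines did not overlap for 9 of the 10, 1 higher and 8 lower, beside 92.5% of all genes in either direction, 47.1% higher and 45.4% lower. CTGF was 15.3-fold lower in TC-71 parental (log2 −3.24, limma, adjusted p = 7.0e-17), AMOTL2 8.10-fold lower (−2.86, adjusted p = 2.2e-18) and CYR61 7.27-fold lower (−2.41, adjusted p = 5.4e-16). TEAD1 was 2.92-fold lower (−1.53, limma, adjusted p = 8.0e-14), and TEAD3, TEAD4, WWTR1 and TEAD2 were lower by 1.11, 0.98, 0.86 and 0.37 on the log2 scale (limma, adjusted p = 6.6e-12, 7.8e-13, 2.0e-11 and 8.9e-08). VGLL3 was 1.22-fold higher in TC-71 parental (log2 0.26, limma, adjusted p = 0.0012). YAP1 was higher by only 0.10 (limma, adjusted p = 0.049) with overlapping libraries. That call was lost when A4573 parental library 1 or 2, TC-71 parental library 1 or 3, or TC-71-R library 1 was left out (log2 0.07 to 0.12), and with edgeR, DESeq2, median-of-ratios scaling or no filter. The line with the least CTGF, CYR61 and AMOTL2 RNA thus had a similar level of YAP1 RNA (109.1 against 101.5 CPM) and less TEAD1, TEAD2, TEAD3, TEAD4 and WWTR1.

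Of a list of 19 other genes known as YAP and TEAD targets, 17 passed the filter and all 17 changed in each resistant line. ANKRD1 and NUAK2, which did not pass the filter, reached at most 0.306 and 0.831 CPM. In A4573-R 4 were higher and 13 lower, beside 38.3% and 34.1% of all tested genes, and their median log2 difference was −0.63 beside 0.02 over all genes. In TC-71-R 6 were higher and 11 lower, beside 38.8% and 39.6% of all genes, with a median of −0.41 beside 0.00. Between the parental lines 7 were higher and 8 lower in TC-71 parental, beside 45.9% and 44.1% of all genes. The change was more positive in TC-71-R than in A4573-R for 9 and more negative for 5, beside 37.9% and 40.2%. The list was chosen with results of these data known and its medians had no test. TGFB2 passed the filter only through A4573 parental and MYOF only through TC-71-R, the groups where they were highest. NT5E passed only through parental libraries, and it was higher in each parent than in its resistant line. These genes are in the counts, but their differences from those groups are not results.

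The target genes did not move as 1 group. Lower in both resistant lines were 9 of the 17, beside 14.8% of all tested genes. Among these, CRIM1, which encodes a membrane protein that binds growth factors, fell from 16.6 to 6.18 CPM in A4573-R and from 24.3 to 12.6 in TC-71-R (log2 −1.30 and −0.90, limma, adjusted p = 5.9e-12 and 2.2e-10). CCDC80, the gene of a secreted matrix protein, fell from 19.3 to 12.2 and from 5.05 to 1.68 CPM (log2 −0.63 and −1.17, limma, adjusted p = 6.3e-08 and 2.6e-11). TGFB2, a TGF-beta ligand, stood at 5.25 CPM in A4573 parental and 0.870 in A4573-R (log2 −1.74). This is given without a test, because TGFB2 passed the filter on low values only through A4573 parental. Its drop in TC-71-R, at 0.239 and 0.119 CPM, was lost without TC-71-R library 1 or TC-71 parental library 1 or 2 (log2 −0.13 each), and with no filter on low values (−0.15). FJX1 passed in A4573-R with −0.15, and no longer without A4573-R library 2 or A4573 parental library 3 (−0.11 and −0.10), nor in a fit of the A4573 groups alone (−0.15). NT5E, also among the 9, passed the filter only through parental libraries, so its lower level in the resistant lines is not a result.

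Another 4 targets, ASAP1, ARHGEF17, MYOF and RBMS3, were lower in A4573-R and higher in TC-71-R like CTGF and CYR61, beside 11.9% of all tested genes. Of these, MYOF passed the filter only through TC-71-R (1.14 to 1.55 CPM), so its rise there is not a result. ASAP1, which encodes a GTPase-activating protein for ARF at focal adhesions, fell from 938.6 ± 28.1 to 268.7 ± 16.7 CPM in A4573-R and rose from 63.4 ± 1.36 to 111.3 ± 2.91 in TC-71-R (log2 −1.80 and 0.80, limma, adjusted p = 2.5e-14 and 1.0e-10). ARHGEF17 fell from 96.7 to 57.65 CPM and rose from 19.6 to 37.6 (log2 −0.74 and 0.91, limma, adjusted p = 2.1e-10 and 1.0e-11). The opposite pattern, higher in A4573-R and lower in TC-71-R, was seen for 2 targets, AXL and GADD45A, beside 14.3% of all genes. AXL, a receptor tyrosine kinase gene, rose from 0.544 to 2.04 CPM and fell from 4.79 to 1.78 (log2 0.98 and −1.06, limma, adjusted p = 4.3e-10 and 9.7e-11).

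Only IGFBP3 and FOXF2 were higher in both, beside 16.4% of all tested genes. IGFBP3, which encodes a protein that binds insulin-like growth factors, rose from 25 to 34 CPM in A4573-R and from 0.567 to 7.56 in TC-71-R (log2 0.43 and 2.45, limma, adjusted p = 8.5e-07 and 1.8e-15). FOXF2, a forkhead factor gene, rose in TC-71-R by 1.24 (limma, adjusted p = 5.6e-11). Its 0.17 in A4573-R did not pass without A4573-R library 1 or 3 or A4573 parental library 1 or 2 (0.13 to 0.17).

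**Figure D4:**
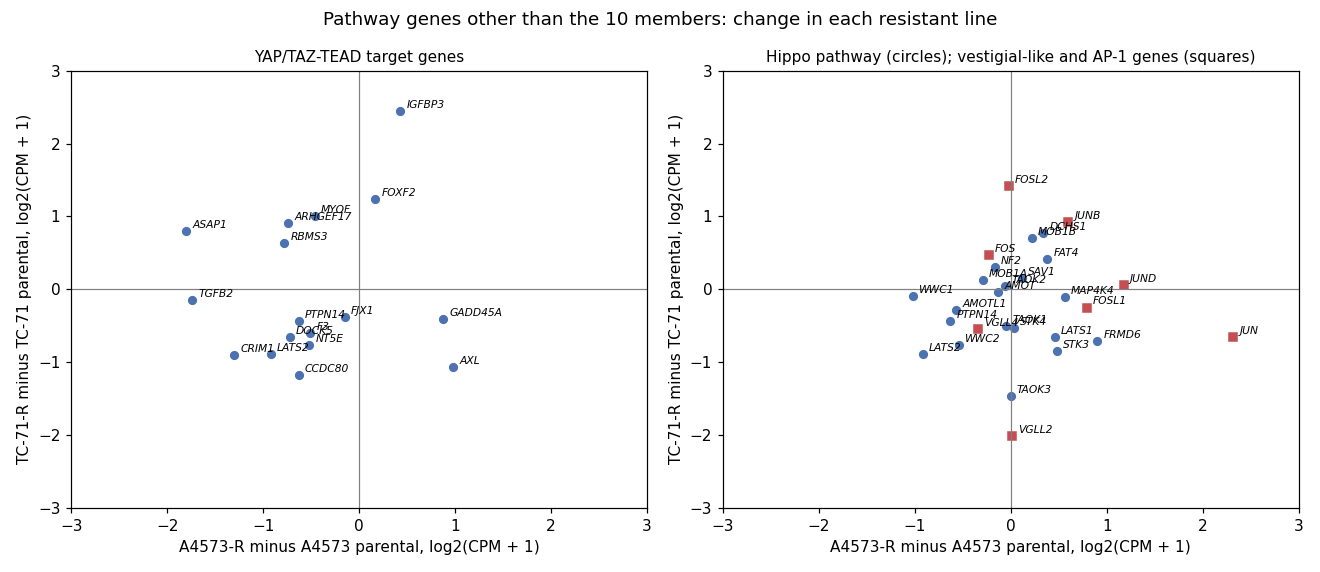
Change in A4573-R (x) and in TC-71-R (y), each against its parent on the log2(CPM + 1) scale, for the listed target genes (left) and for Hippo pathway genes (right, circles) and vestigial-like and AP-1 genes (right, squares). Target genes fill all 4 quadrants, with 9 of 17 lower in both lines, counting TGFB2 and NT5E, and JUN and VGLL2 lie farthest out on the right.

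The Hippo list has 20 kinases, adaptors and upstream regulators, and all 20 were tested. In A4573-R 8 rose, 8 fell and 4 did not pass, beside 38.3% and 34.1% of all tested genes that rose and fell. In TC-71-R 5 rose, 11 fell and 4 did not pass, beside 38.8% and 39.6%. The median log2 difference was −0.03 in A4573-R and −0.20 in TC-71-R, beside 0.02 and 0.00 over all tested genes. LATS2 and PTPN14 are on this list and on the target list. The count of 8 that rose in A4573-R was 7 to 8 when each library was left out in turn. Between the parental lines 7 were higher and 12 lower in TC-71 parental, beside 45.9% and 44.1% of all genes. The change was more positive in TC-71-R for 7 and more negative for 8, beside 37.9% and 40.2%.

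The LATS kinase genes LATS1 and LATS2 parted in A4573-R. LATS1 rose from 38.5 ± 0.546 to 53.4 ± 3.82 CPM in A4573-R and fell from 97.0 ± 1.78 to 60.97 ± 1.52 in TC-71-R (log2 0.46 and −0.66, limma, adjusted p = 1.3e-07 and 1.1e-09). LATS2, which is itself a listed YAP target, fell in both, from 17.0 ± 0.567 to 8.51 ± 0.349 CPM and from 26.3 ± 0.335 to 13.8 ± 0.124 (log2 −0.92 and −0.89, limma, adjusted p = 2.8e-11 and 2.0e-11). STK3, the gene of the upstream kinase MST2, rose from 16.4 to 23.2 CPM in A4573-R and fell from 13.25 to 6.91 in TC-71-R (log2 0.48 and −0.85, limma, adjusted p = 7.7e-08 and 5.5e-11). The change differed between the lines for STK3 by −1.33 and for LATS1 by −1.12 (limma, adjusted p = 2.5e-11 and 1.9e-10), whereas for LATS2 the difference was 0.03 (SE 0.06, limma, adjusted p = 0.67). TAOK3, which encodes a kinase acting upstream of MST2, fell in TC-71-R from 21.3 to 7.07 CPM (log2 −1.47, limma, adjusted p = 1.2e-13) and stood at 13.5 CPM in both A4573 groups.

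Among adaptor and upstream genes, FRMD6 rose from 19.2 to 36.7 CPM in A4573-R and fell from 7.04 to 3.92 in TC-71-R (log2 0.90 and −0.71, limma, adjusted p = 1.2e-09 and 1.1e-08). WWC1, the gene of the scaffold protein KIBRA, fell in A4573-R from 16.4 to 7.57 CPM (log2 −1.02, limma, adjusted p = 2.1e-11), and in TC-71-R its difference was −0.09 (limma, adjusted p = 0.067), or −0.16 and past the threshold with CPM on named genes alone. The protocadherin genes DCHS1 and FAT4, a ligand and receptor pair, rose in both lines, DCHS1 by 0.34 and 0.77 and FAT4 by 0.38 and 0.42 on the log2 scale (limma, adjusted p = 1.0e-04, 8.3e-09, 4.1e-05 and 1.3e-05). The relatives of AMOTL2 were also lower in TC-71 parental. AMOT was 10.9-fold lower in TC-71 parental than in A4573 parental (8.18 against 89.35 CPM, log2 −3.30, limma, adjusted p = 3.5e-19), and AMOTL1 2.50-fold lower (35.8 against 89.8 CPM, log2 −1.30, adjusted p = 1.3e-14). AMOTL1 also fell in both resistant lines, by 0.57 and 0.29 (limma, adjusted p = 1.9e-09 and 2.9e-06).

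AP-1 factors, dimers of FOS and JUN family proteins, are known to bind DNA beside TEADs at many enhancers. Of the list of 10 AP-1 and vestigial-like genes, 8 passed the filter, and FOSB and VGLL1 did not. In A4573-R 4 rose and 2 fell, beside 38.3% and 34.1% of all tested genes, and in TC-71-R 3 rose and 4 fell, beside 38.8% and 39.6%. Their median log2 difference was 0.30 in A4573-R and −0.09 in TC-71-R. Between the parental lines 7 were higher in TC-71 parental and 1 lower, beside 45.9% and 44.1%. Of the 7, VGLL2 and FOS reached 1 CPM only in TC-71 libraries, so their calls between the parental lines are not results. The change was more positive in TC-71-R for 3 and more negative for 5, beside 37.9% and 40.2%. VGLL2, 1 of the 5, had no read in A4573 parental and could not fall in A4573-R. JUN rose in A4573-R from 10.7 ± 0.738 to 57.4 ± 4.73 CPM, 5.35-fold, and fell in TC-71-R from 58.1 ± 1.63 to 36.7 ± 3.02 (log2 2.32 and −0.65, limma, adjusted p = 1.4e-13 and 1.8e-07). The difference of these changes was −2.97 (limma, adjusted p = 3.6e-13), opposite in sign to that of CTGF and of similar size on the log2(CPM + 1) scale, which understates changes at low levels. JUND rose in A4573-R from 39.7 to 91.3 CPM (log2 1.18, limma, adjusted p = 3.5e-12), and in TC-71-R its difference was 0.06 (limma, adjusted p = 0.21) and −0.01 with CPM on named genes alone.

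FOSL2 stood at 1.40 ± 0.145 and 1.36 ± 0.0330 CPM in the A4573 groups and rose in TC-71-R from 14.4 ± 0.199 to 40.4 ± 0.0488 (log2 1.42, limma, adjusted p = 7.2e-13). FOSL1, which encodes the FOS-family protein FRA-1, rose from 0.302 to 1.26 CPM in A4573-R and fell from 1.76 to 1.32 in TC-71-R (log2 0.79 and −0.25, limma, adjusted p = 4.7e-08 and 0.0032). JUNB rose in both lines, from 17.05 to 26.3 and from 12.9 to 25.2 CPM (log2 0.60 and 0.92, limma, adjusted p = 6.3e-08 and 2.5e-10). FOS rose in TC-71-R by 0.47 (limma, adjusted p = 8.4e-05). Its drop of 0.23 in A4573-R did not pass without A4573-R library 1 or A4573 parental library 1 (−0.18 and −0.20), nor with no filter on low values (−0.23), which leaves 1 of the 2 genes that fell there.

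**Figure D5:**
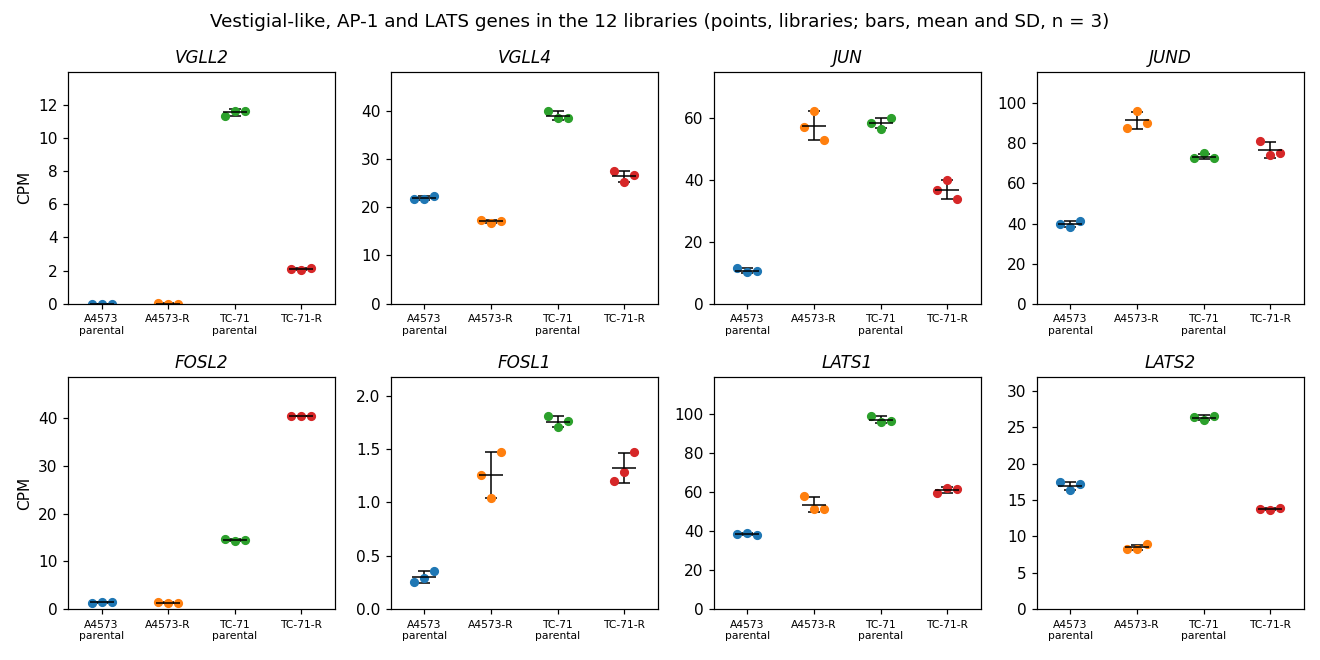
Level in CPM of vestigial-like, AP-1 and LATS kinase genes (1 panel each, linear axis from 0) in the 4 groups, with a point per library and bars for mean and SD, n = 3. JUN and LATS1 are higher in A4573-R and lower in TC-71-R than in the parent, LATS2 and VGLL4 are lower in both, and VGLL2 is seen in the TC-71 groups alone.

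The genes whose levels followed VGLL3 most closely over the 12 libraries were BCL7B, DCTD, IRAK1, REPIN1 and MALT1, with Pearson r of 0.997, 0.990, 0.987, 0.986 and 0.986 on the log2 scale. They were the top 5 of 11489 candidate genes, and the libraries form 4 groups, so r mostly reflects the 4 group levels. BCL7B, which encodes a subunit of the BAF chromatin remodelling complex, had 34.6 CPM in the A4573 parent and 21.9 in A4573-R, and 36.0 in the TC-71 parent and 27.2 in TC-71-R. DCTD, the gene of deoxycytidylate deaminase, had 34.8, 16.8, 39.2 and 26.2 CPM in that order, and IRAK1, the gene of a kinase of the interleukin signalling pathway, had 96.95, 56.0, 114.7 and 76.5 CPM. All 3 shared the order of groups with VGLL3 over a much smaller range.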

How the data were processed

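RNA was sequenced from 12 libraries as paired ends of 100 bases. Trimmomatic, STAR 2.4, HTSeq, edgeR and the GRCh38 build are named in the upstream steps, per the submitters' processing notes. The deposited signal is normalized CPM on library sizes the authors scaled. Dividing a column by its smallest value above 0 gave whole reads for 100% of values within 0.001. Columns sum to 0.940 to 1.12 M. The deposited files list 58293 entries, of which 5 without a gene name hold 30.6% to 42.0% of reads and were left out. A further 1932 entries sharing a symbol were summed. Depth was 43.98 to 62.13 M reads on named genes, and floors are 3 reads and cover counting error only.

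The 14335 genes that reached 1 CPM in 3 or more libraries were tested on log2(CPM + 1) with limma 3.58.1 in R 4.3.3, with 4 group means, a variance trend and Benjamini-Hochberg adjustment over all tested genes at 0.05. Alternatives were a pseudocount of 0.25, no filter, a mean of at least 5 CPM, CPM on named genes, median-of-ratios scaling, edgeR 4.0.16 and DESeq2 1.42.0 on the recovered reads, a replicate block, 2-group fits and leaving out each library. The scripts were tested on simulated data. Positions and exon lengths come from GENCODE 29. No source used here names the authors' annotation.

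The 10 genes and the lists were chosen with earlier results of these data known. Named are the 10 genes, up to 5 targets and up to 4 genes of the other lists per direction and comparison with the largest change past the threshold, and the 5 genes most like VGLL3 whose highest group mean reached 5 CPM. List genes that did not pass may also be named.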

Additional observations from a re-analysis of the deposited data

Results flagged for a closer look

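For 41 of the named genes the change in TC-71-R differed from that in A4573-R (limma test of the difference, adjusted p under 0.05). The count leaves out BCL7B, DCTD, IRAK1, REPIN1 and MALT1, which were named for their likeness to VGLL3 in these same libraries. As for VGLL3, no test of this difference is given for them. Of all tested genes 78.1% passed this test. List genes were named partly for passing it with the largest changes, so nothing is read from the count. Values are the log2 change in TC-71-R minus that in A4573-R. Among the coactivator, TEAD and target genes they were −0.49 for YAP1, 0.45 for TEAD1, 0.40 for TEAD2, −0.24 for TEAD3, −0.37 for TEAD4, 0.84 for AMOTL2, 1.91 for CYR61 and 2.88 for CTGF.

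More positive in TC-71-R among listed targets were ASAP1 with 2.60, IGFBP3 with 2.02, ARHGEF17 with 1.65, TGFB2 with 1.59, MYOF with 1.46, RBMS3 with 1.41, FOXF2 with 1.06, CRIM1 with 0.40 and PTPN14 with 0.20. More negative were AXL with −2.04, GADD45A with −1.30, CCDC80 with −0.54, NT5E with −0.25 and FJX1 with −0.23. The call for NT5E was lost without A4573-R library 2, A4573 parental library 1, TC-71-R library 1 or 3, or any TC-71 parental library (−0.26 to −0.19), and with no filter on low values (−0.25). Its value was −0.65 with a pseudocount of 0.25, −1.13 with edgeR and −1.16 with DESeq2. The call for PTPN14 was lost with CPM recomputed on named genes (0.13). TGFB2 passed the filter on low values only through A4573 parental, NT5E only through parental libraries and MYOF only through TC-71-R, so their values here are descriptions.

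Among the Hippo genes named by the rule the values were 0.93 for WWC1, 0.47 for MOB1B, 0.46 for NF2, 0.44 for DCHS1 and 0.28 for AMOTL1, and −1.61 for FRMD6, −1.47 for TAOK3, −1.33 for STK3, −1.12 for LATS1, −0.67 for MAP4K4 and −0.22 for WWC2. MOB1A with 0.42, STK4 with −0.56 and TAOK1 with −0.46 also passed and complete the list's count. Among vestigial-like and AP-1 genes they were −2.03 for VGLL2, −0.20 for VGLL4, −2.97 for JUN, −1.12 for JUND, −1.04 for FOSL1, 1.44 for FOSL2, 0.70 for FOS and 0.32 for JUNB. VGLL2 had no read in A4573 parental and could not fall in A4573-R, so its value is a description. Groups of 3 libraries were not examined for single outlying libraries.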

How the results depend on the processing

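With 3 libraries per group, and none known to be a separate culture, the error terms cover only these libraries. The scaling shifted the median of all genes by under 0.1. CPM on named genes moved the calls in TC-71-R from 5567 higher and 5681 lower to 5122 and 6661, and those of the difference of changes from 5439 and 5758 to 5116 and 6591. CPM recomputed on named genes raised the VGLL3 level to 15.5 CPM in the A4573 parent and 0.891 in A4573-R, and to 19.9 in the TC-71 parent and 4.82 in TC-71-R, since the unnamed entries no longer count. The VGLL3 log2 difference in A4573-R was −3.12 on that scale, −3.63 with a pseudocount of 0.25, −4.12 with DESeq2 and −4.13 with edgeR, and in TC-71-R −1.84, −1.89, −1.93 and −1.93. With the filter at a mean of 5 CPM fewer list genes were tested. Targets lower in A4573-R were then 8 (13 before), lower in TC-71-R 6 (11), higher in TC-71 parental 4 (7) and more negative in the difference of changes 3 (5). Vestigial-like and AP-1 genes lower in A4573-R were then 1 (2 before), lower in TC-71-R 2 (4), higher in TC-71 parental 4 (7) and more negative in the difference 3 (5). Those lower in A4573-R were also 1 with no filter, and 1 to 2 when each library was left out.

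Some small differences changed sign, none of them past the threshold. With CPM on named genes these were FAT4 (−0.03) and LATS2 (−0.03) in the difference of changes, JUND in TC-71-R (−0.01) and NF2 between the parental lines (0.02). The difference of changes for F3 was 0.05 with DESeq2 and 0.06 with edgeR, and for FAT4 −0.04 without A4573-R library 3, though 0.13 and past the threshold without A4573-R library 1. In A4573-R, FOSL2 was 0.01 without A4573 parental library 2 (lowest −0.07), VGLL2 0.00 without A4573-R library 1, and TAOK3 0.01 without A4573-R library 1 or 3 or A4573 parental library 1 or 3. RBMS3 between the parental lines was −0.01 without TC-71 parental library 3 (highest 0.07).

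Libraries with the same number in 2 groups showed little shared deviation (r −0.097 to 0.165 over 12 pairs, 1 of them over 0.1). With 3 libraries per group this gives no sign of pairing by number but cannot exclude it. A fit with the replicate number as a block called 10422 genes in A4573-R, 11285 in TC-71-R, 12915 between the parental lines and 11236 in the difference of changes, against 10389, 11248, 12892 and 11197 without it.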
